A study of Mus musculus with 10 samples.

Results

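Transcripts of protein kinase A (PKA) and of the exchange factor Epac1, the intracellular receptors for cyclic AMP, were examined in the preoptic region of LPS-treated mice. Of 8 genes listed for these proteins, 7 were named by 25 probe sets that each name 1 gene: the catalytic subunit genes Prkaca and Prkacb, the type I regulatory subunit genes Prkar1a and Prkar1b, the type II regulatory subunit genes Prkar2a and Prkar2b, and Rapgef3, which encodes Epac1. The annotation used here pairs no probe set with Rapgef4 (Epac2), which was not analysed here. The members are 7 of 18193 genes and 25 of 45037 probe sets on the array. All arrays came from DBA1/lacJ mice that had received 120 µg/kg of LPS, a bacterial cell wall component that causes fever, into the peritoneum, and whose brains were taken 5 h later. Tissue of the preoptic region was collected by laser microdissection, and each mouse gave 1 array, 5 labelled mPGES-1 knockout (KO) and 5 labelled wild-type (WT). mPGES-1, the product of Ptges, is a synthase of prostaglandin E2 that inflammation induces. The labels give neither the kind of deletion nor the age and sex of the mice. Mice without LPS were not analysed here, so each difference below is between genotypes after LPS.

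Cyclic AMP is made by adenylyl cyclases when receptors coupled to the G protein Gs are engaged, among them the prostaglandin E2 receptors EP2 and EP4, while EP3, the receptor of preoptic neurons best known for its part in fever, acts mainly through Gi and lowers cyclic AMP. In PKA a dimer of regulatory subunits holds catalytic subunits inactive until cyclic AMP binds the regulatory subunits and frees the kinase, which phosphorylates channels, phosphatase inhibitors and transcription factors of the CREB family. Epac1 and Epac2 bind cyclic AMP as well, but act as exchange factors that load the small GTPase Rap with GTP.

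All 5 probe sets of Rapgef3 averaged lower in mice labelled KO, with log2 differences of -0.84 to -0.24, and all 3 of Prkar2b averaged higher, at 0.20 to 0.88. Both sets of Prkaca averaged lower, and the sets of the other 4 genes had mixed signs. No member passed the threshold. In limma over all 45037 probe sets 0 had a Benjamini-Hochberg adjusted p below 0.05 (background 0%), against 5696 at unadjusted p below 0.05, and the smallest adjusted p of a member was 0.153. At unadjusted p below 0.05 there were 10 of the 25 member probe sets (40%), where the background over all probe sets was 12.6%. Of these, 7 were lower in mice labelled KO (28%, background 8.97%) and 3 were higher (12%, background 3.68%). The dimmest 40% of probe sets hold 4 of the 25, and among the other 21 the share was 47.6%, against a background of 14.5% (5.58% higher and 8.97% lower). Probe sets of 1 gene measure the same transcripts, so these counts are not of independent items. The groups overlapped in all 25, where 3.22% of all probe sets had none.

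**Figure D1:**
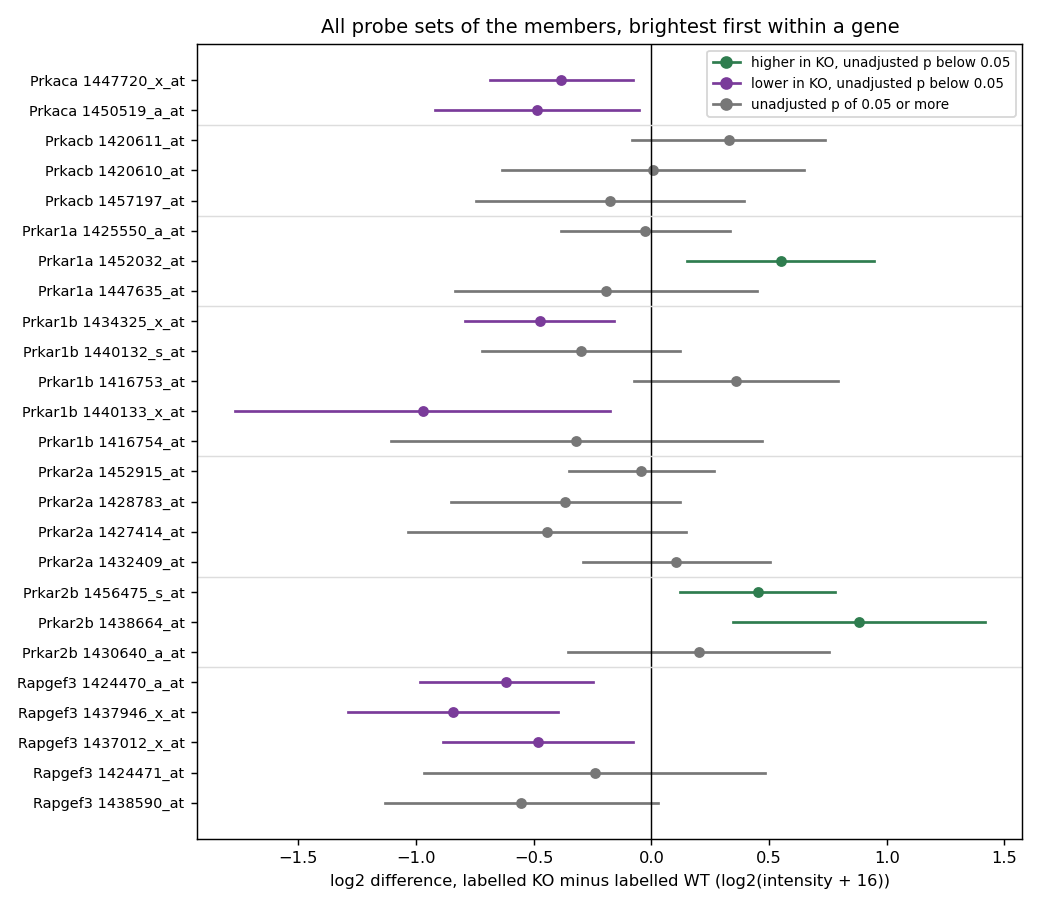
The log2 difference, labelled KO minus labelled WT, of each member probe set is shown with its 95% interval (limma, 5 arrays a group), brightest first within a gene. The 5 Rapgef3 estimates lie between -0.84 and -0.24 and the 3 Prkar2b estimates between 0.20 and 0.88, while those of Prkar1b run from -0.97 to 0.36.

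The Ptges transcript, measured as a check of the labels, was not lower in the arrays labelled KO. Probe set 1439747_at gave 76.1, 17.5, 56.2, 67.8 and 32.2 in the arrays labelled KO, against 5.29, 2.22, 9.33, 4.35 and 1.51 in those labelled WT (log2 difference 1.60, SE 0.31, limma adjusted p = 0.111), with no overlap. The arrays labelled WT lay below the added 16, which therefore sets the size of this difference, 3.20 with a pseudocount of 1 and 0.71 with 64. The other Ptges probe sets, 1449449_at and 1449450_at, differed by 0.95 and 0.27. The deleted part of the gene is not given in the labels, so a probe set outside it checks nothing, and every direction here rests on the labels. Of 11 marker genes of the preoptic region and hypothalamus 10 were found, 0 of them among the dimmest 40% of probe sets, with summed intensities of 2087 to 2943 in mice labelled KO and 1973 to 2730 in mice labelled WT. Gal gave the largest part of these sums, at 1158 to 1982 over all arrays, and Esr1 and Otp reached 583 and 557. The highest of the others, Moxd1, reached 169, and the transcription factor genes Nkx2-1 and Sim1 reached 67.6 and 42.6. Over all probe sets the arrays had been scaled to one trimmed mean, 200.002, but their distributions differed in shape. Median intensities were 24.6 to 29.8 on arrays labelled KO and 32.0 to 44.8 on those labelled WT. Hybridization control probe sets also differed, with mean log2 levels of 10.2 to 11.1 on arrays labelled KO and 10.8 to 12.2 on those labelled WT. Only WT replicate 5 lay within the range of the arrays labelled KO, so this technical difference largely goes with genotype. The median log2 difference was -0.13 over all probe sets, -0.24 between the 30th and 40th percentile of brightness, 0.06 between the 80th and 90th and -0.37 in the brightest 1%. Of the probe sets at unadjusted p below 0.05, 1656 were higher and 4040 lower in mice labelled KO, against 2240 and 2139 after quantile normalization and 6432 and 616 after median centring of each array. Values of both scalings are given below for the 10 member probe sets at unadjusted p below 0.05. Of the other 15, median centring turned 5 from below to above 0, namely Prkacb 1457197_at (0.10), Prkar1a 1425550_a_at (0.25) and 1447635_at (0.09), Prkar2a 1452915_at (0.24) and Rapgef3 1424471_at (0.04), and quantile normalization turned 1447635_at alone.

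**Figure D2:**
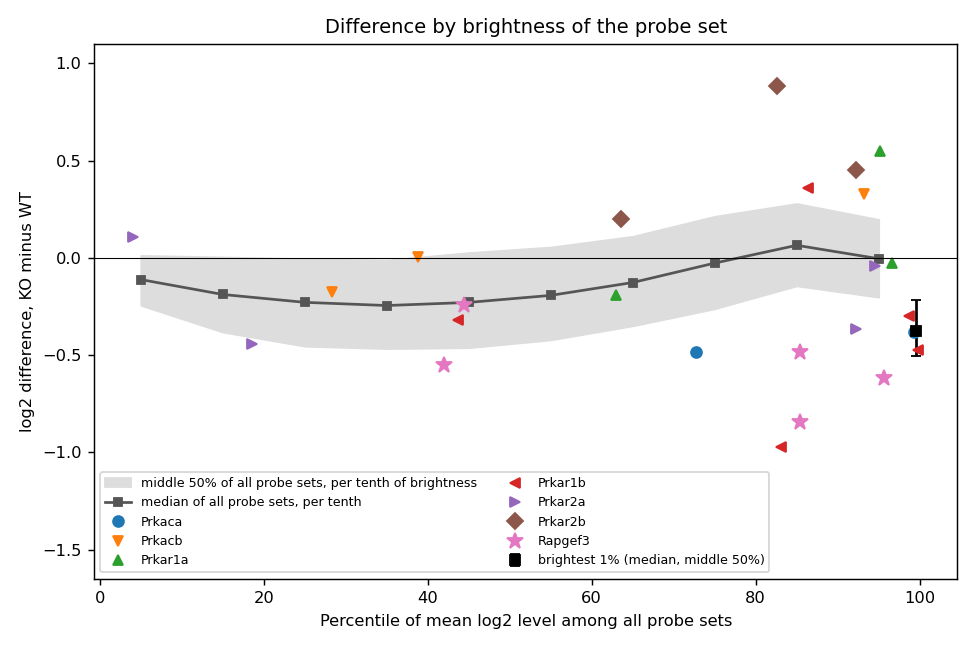
The log2 difference, labelled KO minus labelled WT, is plotted against the percentile of mean level, as the median and middle 50% of all probe sets in steps of 10 percentiles and for the brightest 1%, with the 25 member probe sets on top. The brightest Prkaca and Prkar1b probe sets lie within the middle 50% of the brightest 1% (-0.50 to -0.22). Outside the middle 50% of their step lie all 3 Prkar2b sets and all Rapgef3 sets but 1424471_at. At least 1 set of each other gene lies outside it as well.

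By signal, the probe sets of a gene reached the following percentiles of mean level on the array: 99.8 for Prkar1b, 99.3 for Prkaca, 96.6 for Prkar1a, 95.6 for Rapgef3, 94.5 for Prkar2a, 93.2 for Prkacb and 92.2 for Prkar2b. The lowest probe set of the same genes lay at 43.7, 72.8, 63.0, 42.0, 4.08, 28.4 and 63.6. The span within a gene exceeded the span between the genes' brightest sets, and probes differ in how strongly they bind, so this order ranks probe sets and not amounts of transcript.

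Both probe sets of Prkaca, which encodes the widely expressed catalytic subunit Cα, were lower in mice labelled KO. Probe set 1450519_a_at gave 91.1, 92.6, 87.9, 73.9 and 118 in the arrays labelled KO, against 142, 168, 106, 126 and 139 in those labelled WT. Only KO replicate 5 and WT replicate 3 made the groups overlap, and the means were 92.6 ± 15.8 and 136 ± 22.5 (SD, n = 5 each). The log2 difference, taken on log2(intensity + 16) as throughout, was -0.49 (SE 0.21, 95% interval -0.92 to -0.05, limma adjusted p = 0.341). The much brighter 1447720_x_at gave 9887 ± 1006 in mice labelled KO and 12973 ± 1979 in mice labelled WT (SD, n = 5 each), a log2 difference of -0.38 (SE 0.14, limma adjusted p = 0.287). Names ending in _x_at mark probe sets whose probes can also match other transcripts. This set belongs to the brightest 1%, whose median difference was about as large, and after quantile normalization it was at -0.12 and after median centring at -0.10, where 1450519_a_at was at -0.42 and -0.21.

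Prkacb, encoding the catalytic subunit Cβ, of which the brain makes several splice forms, had 1 bright and 2 dim probe sets. Probe set 1420611_at gave 1147, 950.2, 1283, 1470.2 and 994 in the arrays labelled KO, against 862, 641, 806, 1469 and 980.2 in those labelled WT. WT replicates 4 and 5 lay within the range of the arrays labelled KO, and the other 3 arrays labelled WT lay below it. The log2 difference was 0.33 (SE 0.19, 95% interval -0.08 to 0.74, limma adjusted p = 0.489). With single arrays left out it ran from 0.20 (without WT replicate 2) to 0.50 (without WT replicate 4). It was 0.26 after quantile normalization, 0.61 after median centring and 0.16 on the arrays with spike-in signal, and the mean over the 3 probe sets differed by 0.05. The dim sets 1420610_at and 1457197_at, both among the dimmest 40%, ranged between 1.47 and 38.9 and differed by 0.01 and -0.18.

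The 3 probe sets of Prkar1a, the ubiquitous type I regulatory subunit RIα, did not share a direction. Probe set 1452032_at gave 1517, 1979.5, 1667, 2239 and 2003 in the arrays labelled KO, against 1314, 838, 1940.2, 1359 and 1126 in those labelled WT. Of the arrays labelled WT only replicate 3 reached into the range of the arrays labelled KO. The log2 difference was 0.55 (SE 0.19, 95% interval 0.15 to 0.95, limma adjusted p = 0.250). It was 0.50 after quantile normalization and 0.83 after median centring, and 0.34 within the 7 arrays that had signal on the spike-in control probe sets. The slightly brighter 1425550_a_at showed no such difference, at 2283 ± 253 in mice labelled KO and 2379 ± 631 in mice labelled WT (SD, n = 5 each) with a log2 difference of -0.03 (95% interval -0.39 to 0.33, limma adjusted p = 0.965). The dimmer 1447635_at was at -0.19 (SE 0.31).

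Prkar1b, which encodes RIβ, the type I subunit found mainly in neurons, had 4 probe sets lower and 1 higher in mice labelled KO. Its brightest set, 1434325_x_at, gave 20596, 19841, 21535, 22236 and 19026 in the arrays labelled KO, against 27874, 27846, 33422, 33859 and 22047 in those labelled WT. WT replicate 5 fell among the arrays labelled KO and the other 4 lay above all of them, for a log2 difference of -0.48 (SE 0.15, limma adjusted p = 0.216). Quantile normalization turned it to 0.03 and median centring left -0.20, and at the 99.8th percentile it stands among the brightest 1% with their median of -0.37. The dimmer 1440133_x_at was at -0.97 (SE 0.38, limma adjusted p = 0.303), with 76.3 and 69.8 on KO replicates 3 and 5 and 290.3 to 429 on the other arrays labelled KO, against 311 to 484 on those labelled WT. Without KO replicate 3 or 5 it was at -0.68 and -0.66, after quantile normalization at -0.99 and after median centring at -0.69. Of the brighter sets whose names do not end in _x_at, 1440132_s_at was at -0.30 (SE 0.20, limma adjusted p = 0.546), and at -0.10 without WT replicate 4, the highest array at 12222, with -0.15 after quantile normalization and -0.02 after median centring. Set 1416753_at was at 0.36 (SE 0.21, limma adjusted p = 0.474), at 0.19 without WT replicate 5, at 0.07 on the arrays with spike-in signal and at 0.64 after median centring. Set 1416754_at, the dimmest of the 5, was at -0.32 (SE 0.37).

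Prkar2a, encoding the widely expressed type II subunit RIIα, was close to equal by its brightest probe set. Set 1452915_at gave 1336 ± 260.1 in mice labelled KO and 1356 ± 50.4 in mice labelled WT (SD, n = 5 each), a log2 difference of -0.04 (SE 0.15, 95% interval -0.35 to 0.27, limma adjusted p = 0.927). The arrays labelled KO were spread from 1045 to 1693, around the 1298 to 1419 of those labelled WT. Set 1428783_at was at -0.37 (SE 0.23, limma adjusted p = 0.517), with KO replicate 1 at 369 and the other arrays labelled KO at 789 to 985, against 763 to 1262 in those labelled WT. That difference was -0.11 without KO replicate 1 and -0.09 after median centring. The sets 1427414_at and 1432409_at were among the dimmest 40%, at no more than 22.9, and differed by -0.44 and 0.11.

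Prkar2b, encoding RIIβ, a type II subunit known in mice for its high level in the striatum and other forebrain areas and in fat, was higher in mice labelled KO by each of its 3 probe sets. Set 1438664_at gave 261, 456, 320.0, 328 and 481 in the arrays labelled KO, against 273, 120.1, 327, 143 and 149.6 in those labelled WT. WT replicates 1 and 3 overlapped with the lower arrays labelled KO, and the other 3 arrays labelled WT lay well below. The log2 difference was 0.88 (SE 0.25, 95% interval 0.35 to 1.42, limma adjusted p = 0.191), a 1.84-fold higher level. The brighter 1456475_s_at gave 909, 1153, 1104, 958 and 1012 in the arrays labelled KO, against 995, 709, 828, 612 and 635 in those labelled WT. Here WT replicate 1 alone lay within the range of the arrays labelled KO, and the log2 difference was 0.45 (SE 0.16, 95% interval 0.12 to 0.78, limma adjusted p = 0.254). The third set, 1430640_a_at, was dimmer and at 0.20 (SE 0.26), with 0.39 after quantile normalization and 0.48 after median centring. Quantile normalization gave 0.85 and 0.38 for the first and second set. Median centring gave 1.16 and 0.73, with limma adjusted p of 0.045 and 0.046, and was the only processing run in which a member had an adjusted p below 0.05. That run moved the median log2 difference of all probe sets from -0.13 to 0.15. It called 550 of all 45037 probe sets, 545 of them higher in mice labelled KO and 5 lower. Limited to the 7 arrays with signal on spike-in probe sets, the first and second Prkar2b sets were at 0.63 and 0.33.

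**Figure D3:**
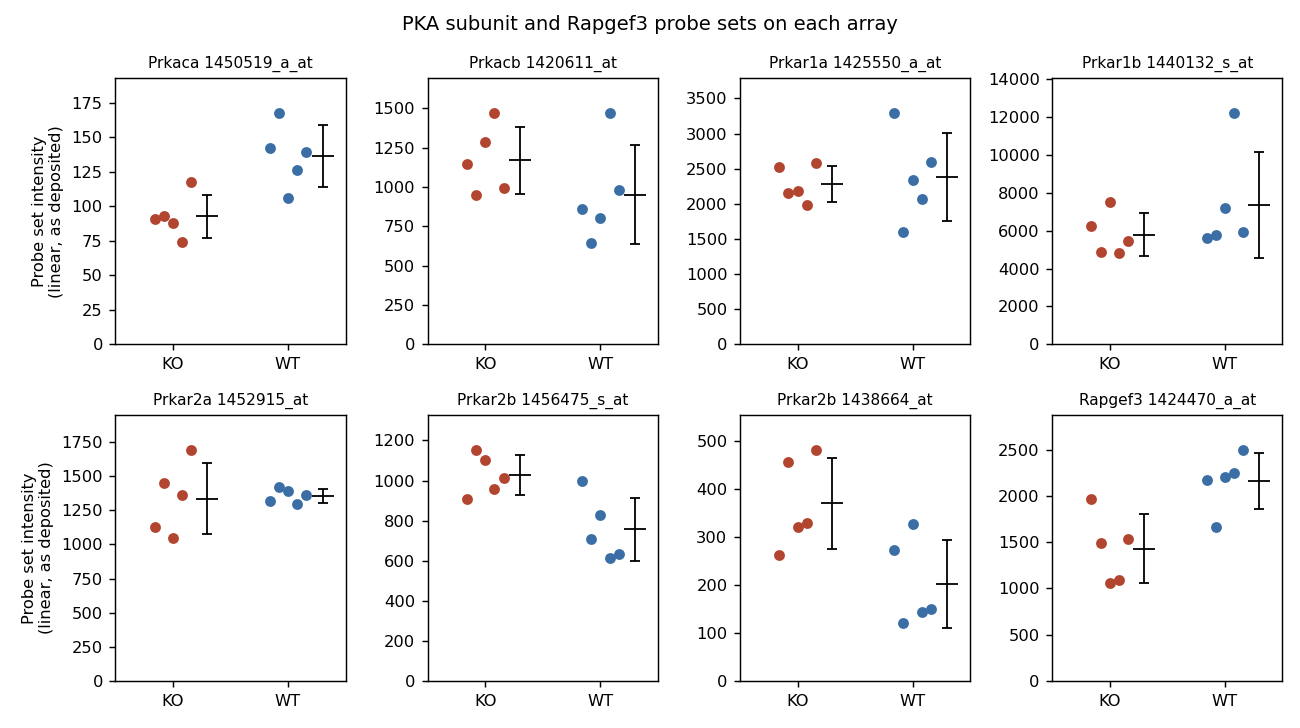
Each point is 1 array, as deposited intensity on a linear axis starting at 0, for the brightest probe set of each gene that is not an _x_at set and for a second Prkar2b set, with the mean and SD at the side (n = 5). The arrays labelled KO lie mostly above those labelled WT for both Prkar2b sets and mostly below for Rapgef3 and Prkaca, with some overlap in every panel.

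Rapgef3 encodes Epac1, the cyclic AMP-regulated exchange factor for Rap that is known for its part in the barrier function of endothelial cells, and all of its 5 probe sets were lower in mice labelled KO. Set 1424470_a_at, the brightest, gave 1969, 1491, 1056, 1095 and 1528 in the arrays labelled KO, against 2175, 1666, 2199.5, 2249 and 2498 in those labelled WT. KO replicate 1 lay above WT replicate 2, and no other pair was out of order. The means were 1428 ± 373 and 2158 ± 303 (SD, n = 5 each), with a log2 difference of -0.62 (SE 0.17, 95% interval -0.98 to -0.25, limma adjusted p = 0.182). Set 1437946_x_at gave 431, 283, 155, 239.7 and 246 in the arrays labelled KO, against 468, 452, 418, 575 and 474 in those labelled WT. Again KO replicate 1 was the only array labelled KO to reach the range of those labelled WT, and the log2 difference was -0.84 (SE 0.21, 95% interval -1.29 to -0.40, limma adjusted p = 0.153), or 0.558 times the level. Set 1437012_x_at was at -0.48 (SE 0.19, limma adjusted p = 0.313), with -0.54 after quantile normalization and -0.20 after median centring. The dimmer sets 1438590_at and 1424471_at were at -0.55 (SE 0.28) and -0.24 (SE 0.34), in a range of brightness where the median of all probe sets was -0.23. Quantile normalization gave -0.67 and -0.91 for the first and second set. Median centring, which moved the median of all probe sets to 0.15, gave -0.34 and -0.56, and turned 1424471_at to 0.04. Limited to the 7 arrays with signal on spike-in probe sets, they were at -0.56 and -0.70. The RefSeq gene table lists an opposite-strand gene, Rapgef3os2, that overlaps Rapgef3, and which strand each probe set reads is not given in the sources used here.

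Rapgef3 and Prkar2b had the smallest p-values of the members in their directions, so the stretches upstream of their RefSeq start sites (GRCm38.p6) are shown, 250 bases each, read 5′ to 3′ on the gene's strand. TGACG, the short form of the cyclic AMP response element TGACGTCA to which CREB binds, was searched on both strands and is in capitals. The Rapgef3 window is chr15:97767667-97767916 on the minus strand and lies within the annotated spans of Rapgef3 and Rapgef3os2, and the Prkar2b window is chr12:32061278-32061527 on the minus strand, within the span of Prkar2b. Of the 2 Prkar2b start sites searched, the one farther upstream is shown. The annotated spans of both genes reach past the start sites shown, so by that annotation these windows lie inside the genes.
Rapgef3: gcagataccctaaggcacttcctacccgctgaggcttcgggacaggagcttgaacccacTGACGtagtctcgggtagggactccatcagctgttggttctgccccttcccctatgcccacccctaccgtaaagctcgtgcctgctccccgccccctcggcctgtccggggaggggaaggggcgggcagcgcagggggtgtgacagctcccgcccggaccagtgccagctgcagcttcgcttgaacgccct
Prkar2b: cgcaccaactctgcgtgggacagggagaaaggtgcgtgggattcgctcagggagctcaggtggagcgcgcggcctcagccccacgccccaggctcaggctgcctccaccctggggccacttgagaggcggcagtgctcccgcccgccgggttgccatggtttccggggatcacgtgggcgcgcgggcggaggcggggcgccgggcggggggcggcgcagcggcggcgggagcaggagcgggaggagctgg
The Rapgef3 window holds 1 short element, starting 191 bases before the start site, and neither Prkar2b window holds any. Over the 21 RefSeq start sites of the 8 genes, 7 windows held a short element (33.3%), against 17.8% of 32851 windows of the same length. The whole element was in 1 of the 21, a start site of Prkar1a, against 1.55% of all windows. Windows of 1 gene can overlap, and a match of letters does not show a binding site.

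The opposite differences of Prkar2b and Rapgef3 gave a shift of their relative level within each array. This pair was chosen after its values were seen, and the shift is a description. The log2 level of Prkar2b (1456475_s_at) minus that of Rapgef3 (1424470_a_at) was -1.10, -0.37, 0.06, -0.19 and -0.59 in the arrays labelled KO, against -1.12, -1.21, -1.39, -1.85 and -1.95 in those labelled WT. The 2 groups just failed to meet, at KO replicate 1 and WT replicate 1, and the means were -0.44 ± 0.44 and -1.50 ± 0.38 (SD, n = 5 each). A difference taken within an array is free of that array's overall scaling, but not of the change in shape described above.

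Summed marker levels of other cells differed between the groups beside both genes, and their part in the results was not tested. In bulk tissue fewer cells of a type and less RNA per cell cannot be told apart. Beside Prkar2b, 8 of 10 listed markers of striatal projection neurons, which lie next to the preoptic region, were found, and 7 were higher in mice labelled KO. Their summed intensity was 4619, 4604, 5051, 2076 and 3417 in the arrays labelled KO, against 1989, 1658, 2177, 1370.3 and 1728 in those labelled WT, so that KO replicate 4 alone fell into the range of the arrays labelled WT. On that array Prkar2b 1438664_at stood at 328 and 1456475_s_at at 958, neither the highest nor the lowest array labelled KO. The dimmer 1430640_a_at stood at 41.2, the lowest array labelled KO. None of the 8 was at 0 on any array, though Ppp1r1b and Drd2 were among the dimmest 40%, at no more than 29.0 and 37.7. Beside Rapgef3, 4 of 6 microglial markers found were lower in mice labelled KO. The 6 had a summed intensity of 4759 to 6918 in the arrays labelled KO and 6679 to 10320.0 in those labelled WT. Most of this sum was Csf1r, at 4477 to 9479 over all arrays, where Cx3cr1 reached no more than 696 and the others no more than 106. Tmem119 (0.36) and P2ry12 (0.39) were higher in mice labelled KO. Of 5 endothelial markers found 4 were lower, with sums of 543 to 929 in the arrays labelled KO and 743 to 1569 in those labelled WT, and none was at 0, the dimmest being Pecam1 at 0.897 to 16.6. KO replicate 1 had the lowest endothelial sum. It had the highest Rapgef3 of the arrays labelled KO by the brighter sets, but not by 1424471_at and 1438590_at. Of 8 general neuronal markers 4 were higher and 4 lower, with sums of 13489 to 24123 (KO replicate 3) in the arrays labelled KO and 13467 to 17739 in those labelled WT. Of 7 astrocyte markers 3 were higher and 4 lower, with sums of 13079 to 18462 and 16069 to 21064. Gfap, among the lower ones, was at -0.73 (SE 0.17, limma adjusted p = 0.143), and its groups did not overlap. KO replicate 3 stood apart in the choroid plexus sum, at 6641 against 534 to 869 in the other arrays labelled KO and 488 to 1172 in those labelled WT. Most of the 6641 was 1 gene, Ttr, which reached 6161, where the next highest, Clic6, reached 510 on any array. Without KO replicate 3 Rapgef3 was at -0.52 and -0.67 and Prkar2b at 0.92 and 0.43.

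**Figure D4:**
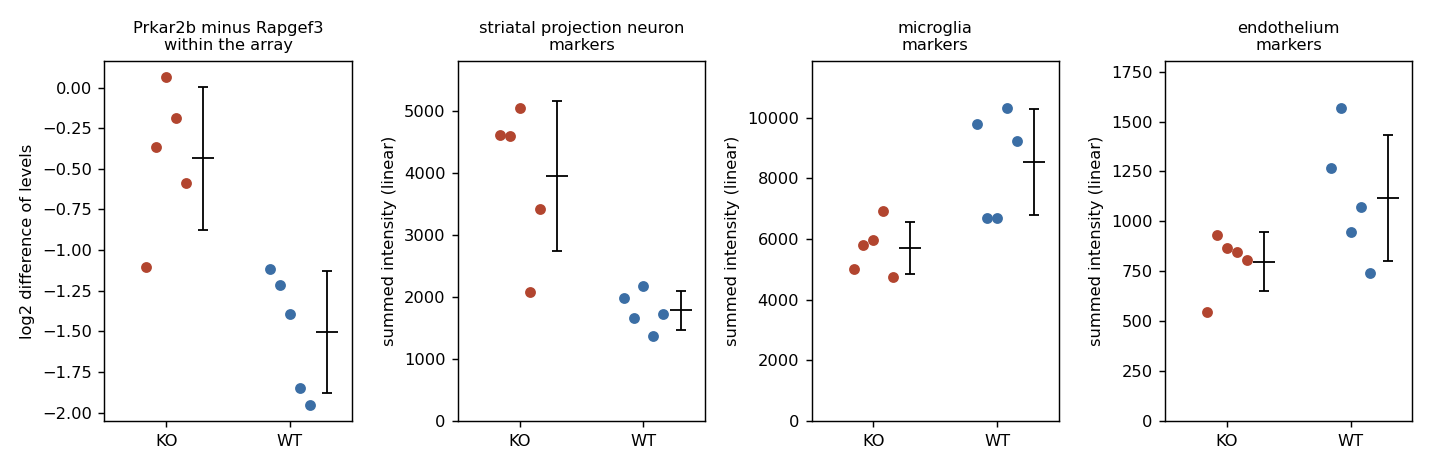
Points are arrays, with mean and SD at the side (n = 5), for the log2 level of Prkar2b minus that of Rapgef3 within the array and for the summed linear intensity of marker genes of striatal projection neurons, microglia and endothelium. The groups do not meet in the first panel, and in each marker panel they overlap in at least 1 array.

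The probe sets of a gene agreed to different degrees from array to array. After removal of the group means, over 10 arrays, Pearson r between the 2 brightest sets was 0.74 for Prkar2b (1456475_s_at and 1438664_at) and 0.77 for Rapgef3 (1424470_a_at and 1437946_x_at). It was 0.58 for Prkar1b (1434325_x_at and 1440132_s_at), 0.49 between the Prkaca sets, 0.47 between the brighter Prkar2a sets and 0.28 between the brighter Prkar1a sets. The third Prkar2b set ran at -0.20 and -0.13 with the others, and the dimmer Rapgef3 set 1438590_at at -0.85 with 1424470_a_at, although both were lower in mice labelled KO. All points share the arrays' scaling, and these values are descriptions.

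By the same measure the genes closest to Rapgef3 among 13597 candidates were Rd3 (r = 0.97, itself at a log2 difference of -0.99) and Hdgf (r = 0.95). Those closest to Prkar2b were Atp5pb (0.94) and Snx14 (0.92), to Prkar1b Blmh and Sec61a2 (0.93 each), and to Prkar2a 2610001J05Rik (0.94) and Nap1l3 (0.92). For Prkar1a they were Flywch2 (0.95) and Uxt (0.93), for Prkacb Zfp639 (0.97) and Pard6a (0.96), and for Prkaca Slc35b2 (0.92) and Slc13a5 (0.90). With 10 arrays and this many candidates high values are common, and between 2 and 25 candidates exceeded 0.9 for each member.

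The other genes of cyclic AMP signalling were read from 9 lists. Of 213 probe sets of 85 genes 0 passed limma's threshold, and 30 had an unadjusted p below 0.05 (14.1%, background 12.6%). Of these, 18 were higher in mice labelled KO (8.45%, background 3.68%) and 12 lower (5.63%, background 8.97%). The values that follow are those of the probe set with the smallest p of each gene, and other sets of the same gene are given beside it. For each list the same backgrounds apply, 3.68% higher and 8.97% lower. Without the dimmest 40% of probe sets they were 5.58% and 8.97%, and the lists differ in how many dim sets they hold. The median log2 difference of the 213 probe sets was -0.04, against -0.13 over all probe sets.

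Upstream of the members, adenylyl cyclases, which make cyclic AMP, had 1 higher (4.55%) and 1 lower (4.55%) of 22 probe sets at unadjusted p below 0.05. Adcy9 was at 0.67 (SE 0.20, limma adjusted p = 0.195), with its other sets at -0.18 to 0.56, and Adcy3 was at -0.38 (SE 0.18, limma adjusted p = 0.390), with its other sets at -0.23 to -0.14. Of the Gs-type alpha subunits, 0 of 8 probe sets reached that level, and Gnas was at -0.27 (SE 0.13), with its other sets at -0.46 to 0.04. The Gnal set of smallest p, among the dimmest 40%, was at -0.22, and the brighter Gnal sets were at 0.15 and 0.13. Phosphodiesterases, which break cyclic AMP down, had 3 higher (6.52%) and 2 lower (4.35%) of 46. Pde10a, abundant in striatal projection neurons, by its set 1439618_at gave 529, 1038, 938, 277 and 506 in the arrays labelled KO, against 206, 221, 306, 94.8 and 155 in those labelled WT (log2 difference 1.60, SE 0.32, limma adjusted p = 0.114). With the replicate number as a block this set passed (limma adjusted p = 0.027), and the other 4 Pde10a sets ranged from -0.42 to 0.97. A dim Pde3a set, 1431914_at, had 0.934 to 2.01 in the arrays labelled KO and 12.2 to 34.1 in those labelled WT (limma adjusted p = 0.123). At levels this far below or near the added 16 the size of its difference depends on that choice and is not given, and the other Pde3a sets, also among the dimmest 40%, were at 0.46 and -0.27.

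Among genes that restrain or place PKA, the inhibitor peptide gene Pkig was at -0.31 (SE 0.14, limma adjusted p = 0.387) and Pkib at 0.27 (SE 0.23), with another set of each at -0.07 and -0.10. A-kinase anchoring proteins, which tether the regulatory subunits, had 0 higher and 5 lower (10.9%) of 46 probe sets at unadjusted p below 0.05. The first were Map2 at -0.93 (SE 0.29) and Akap3 at -0.80 (SE 0.29), both by sets among the dimmest 40%, where the median of all probe sets was also below 0. The brightest Map2 set was at -0.08 and its other sets at -0.36 and -0.02, and the other Akap3 set was at -0.17.

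Downstream of PKA, Creb1, the transcription factor that PKA phosphorylates, gave 582, 579.8, 661, 571 and 533 in the arrays labelled KO, against 461, 463, 389.9, 415 and 346 in those labelled WT. In this set, 1428755_at, the groups did not overlap and the log2 difference was 0.49 (SE 0.15, limma adjusted p = 0.205), while the other 5 Creb1 sets ranged from -0.35 to 0.21. Creb1 supplied the single probe set of 22 in the CREB list at unadjusted p below 0.05, and Crebbp was at 0.28 (SE 0.14), with its other sets at -0.49 to 0.36. PKA-regulated phosphoproteins had 4 higher (33.3%) and 2 lower (16.7%) of 12. Arpp21, a striatum-rich substrate of PKA, was at 2.04 (SE 0.49, limma adjusted p = 0.153) with 1126, 1067, 1764, 149 and 479.7 in the arrays labelled KO and 292.7, 270.5, 141, 79.1 and 99.1 in those labelled WT. Its other 4 sets ranged from -0.34 to 0.34. Arpp19 was at 0.77 (SE 0.22, limma adjusted p = 0.184), and its other sets were at 0.61 and -0.40.

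In the Rap branch, where Epac acts, 6 of 34 probe sets were higher (17.6%) and 0 lower at unadjusted p below 0.05. Rapgef2, a Rap exchange factor that lies outside the Epac pair, gave 2807, 3749, 4379, 2981 and 3709 in the arrays labelled KO, against 2442, 2606, 2480.1, 1745 and 2024 in those labelled WT. The groups did not overlap, and its log2 difference of 0.63 (SE 0.16, limma adjusted p = 0.153) had the sign opposite to that of Rapgef3. The GTPase gene Rap2a was at 0.42 (SE 0.16, limma adjusted p = 0.276), and its other set, among the dimmest 40%, at -0.29. Among other kinases and effectors of cyclic nucleotides 3 were higher (17.6%) and 1 lower (5.88%) of 17. The cyclic GMP-dependent kinase gene Prkg2 had a set at 1.07 (SE 0.26, limma adjusted p = 0.153), but its brightest set was at -0.29 and the third at -0.07. Prkg1 had a set among the dimmest 40% at 0.98 (SE 0.31) and a much brighter one at 0.16. Median centring called 8 of the 213 probe sets of these lists, 1 each of Adcy9, Arpp19, Arpp21, Creb1, Pde10a, Prkg1, Prkg2 and Rapgef2. All 8 were higher in mice labelled KO, as were 545 of the 550 it called among all 45037 probe sets.

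**Figure D5:**
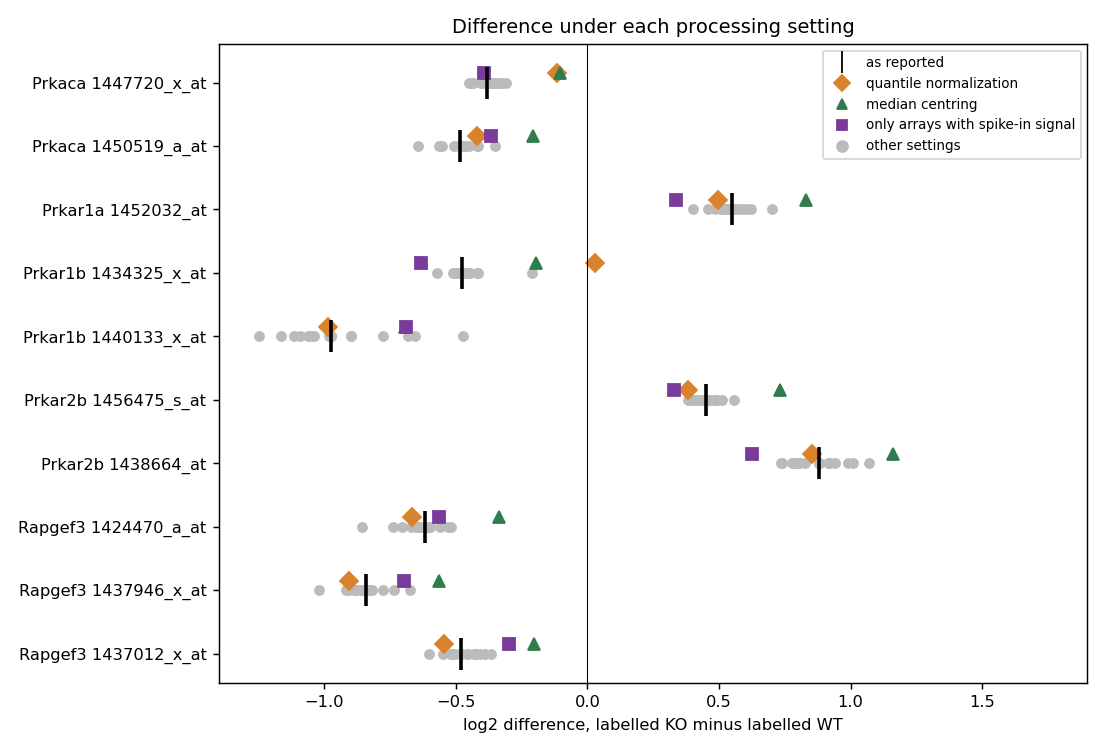
Log2 differences, labelled KO minus labelled WT, of the 10 member probe sets at unadjusted p below 0.05 are shown as reported (bar) and under each other setting, with quantile normalization, median centring and the arrays with spike-in signal marked. Prkar1b 1434325_x_at runs from -0.63 to 0.03. Each of the other sets drawn, of Prkaca, Prkar1a, Prkar1b, Prkar2b and Rapgef3, keeps its sign in each setting drawn.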

How the data were processed

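Amplified, biotin-labelled RNA of 10 mice was measured on 10 arrays, 5 labelled KO and 5 labelled WT by title, each from a separately numbered mouse. The deposited intensities are linear and were made by the authors with GCOS, per the submitters' processing notes, with its version not given in the sources used here. Each array has the same trimmed mean, so bright and dim probe sets can still shift against each other. Of 45101 probe sets 64 controls were left out, and 34945 of the rest name 1 gene. All 25 member probe sets matched RefSeq (GRCm38.p6) by Entrez ID.

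Values were tested as log2(intensity + 16) with limma (intensity trend, genotype as the only term), KO minus WT, with Benjamini-Hochberg adjustment over all 45037 probe sets. R 4.3.3, limma 3.58.1, Python 3.11.15 and matplotlib 3.10.9 were used, and the fit was tested on simulated data. Members and lists were chosen with earlier results of these data known. Named genes are members, Ptges, markers, the 2 genes of smallest p in each list, any gene past the threshold and the 2 genes most like each member. Alternatives changed the pseudocount (1 and 64), the scaling, the filter on the dimmest 40% or 60%, the summary per gene, weights and trend, blocks and covariates, thresholds, and left out each array. Counts of members by direction were added after the data were seen. Highest equality of values between 2 arrays was 0.00444% of probe sets. The spread between mice includes that of dissection and amplification, and the number of arrays limits precision.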

Additional observations from a re-analysis of the deposited data

Results flagged for a closer look

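Of 50 groups of 5 arrays checked (25 member probe sets, 2 groups each), 2 held an array far from the others by Dixon's criterion, where chance gives about 1 in 20. Both were in Prkar2a and both were KO replicate 1. In 1428783_at this array was lowest, at 369 against 789 for the next array labelled KO, with a gap of 0.772 of the group's range. In the dim set 1432409_at it was highest, at 16.5 against 2.99, with a gap of 0.837.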

How the results depend on the processing

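No member passed limma's threshold under any alternative other than median centring, where 2 did (both Prkar2b), and the unadjusted threshold, where 10 did. Over all probe sets the count past the threshold, 0 as reported, was 550 with median centring, 3 with 1 probe set per gene (Tac1, Pkdrej and Ndufv3), 1 with the mean per gene (Pkdrej), 1 with the replicate block (Pde10a), 5696 at unadjusted p below 0.05, and 0 to 1 with each array left out (Tac1 without KO replicate 4, Synpr without KO replicate 1). In the cyclic AMP lists it was 8 with median centring, 1 with the replicate block and 30 at unadjusted p below 0.05. Member probe sets lower in mice labelled KO at unadjusted p below 0.05 numbered 7 as reported, 4 with quantile normalization, 1 with median centring, 4 with the hybridization controls as covariate and 5 to 9 with each array left out. Those higher numbered 3 as reported, 5 with median centring and 1 when limited to arrays with spike-in signal. With each array left out they numbered 3 to 5 (5 without WT replicate 4). At this level 4040 of all 45037 probe sets were lower as reported. The count was 2139 after quantile normalization, 616 after median centring and 2057 with the covariate. Those higher over all probe sets were 1656 as reported, 6432 after median centring and 1448 when limited to arrays with spike-in signal. Under both scalings, member counts that changed moved in the same direction as those over all probe sets. Rapgef3 had 5 of 5 sets lower and Prkar2b 3 of 3 higher without each array in turn, and Rapgef3 had 4 with median centring.

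By their brightest set not ending in _x_at, Prkaca, Prkacb, Prkar1b, Prkar2b and Rapgef3 kept their sign in each setting run. Prkar1a, at -0.03, turned to 0.25 with median centring, 0.11 with the mean per gene and 0.02, 0.10 and 0.02 without WT replicate 5, WT replicate 1 and KO replicate 4 (-0.16 to 0.10 over the arrays left out). Prkar2a, at -0.04, turned to 0.24 with median centring, 0.01 with array weights, 0.0625 when limited to arrays with spike-in signal and 0.0395 and 0.01 without KO replicates 3 and 1 (-0.13 to 0.04). Ptges 1439747_at reached 1.88 with median centring (limma adjusted p = 0.014), 3.20 with a pseudocount of 1 and 0.71 with 64, and 1449450_at was at -0.0273 without WT replicate 2 (-0.03 to 0.47). The cause of these reversals was not tested. Same-numbered arrays were not paired: deviations from the group means correlated at -0.09 to 0.04 over 5 pairs, and the replicate block moved no member past the threshold. Dim sets carry the least weight, as 4 of the 25 lay in the lowest 40%, with no detection calls used.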
